A study of Homo sapiens with 4 samples.

Results

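The 10 genes described here build, link, bind or surround hyaluronan and the proteoglycans of the extracellular matrix: HAS2, HAS3, HAPLN1, HAPLN3, VCAN, CD44, LUM, DCN, BGN and GPC3. They were taken by annotated symbol, out of 20046 named genes on the array, and they were chosen with earlier results of these arrays in view, so their differences between the groups are given as a description. RNA came from the established human embryonic stem cell line RUES2, harvested on day 5 of directed cardiac differentiation, when cardiovascular progenitors appear. Of the 4 Illumina bead arrays, 2 held cells carrying an shRNA to TMEM88, whose protein product dampens Wnt signalling, with 1 array for hairpin 691 and 1 for hairpin 94, which target different stretches of the gene. The other 2 held cells with a control shRNA, called controls 1 and 2. The cells on all 4 arrays had been infected with lentivirus while undifferentiated and put through puromycin selection, controls included. The TMEM88 group therefore carries the difference between hairpins within its spread, and nothing in the labels states that the arrays came from separate cultures, so a p-value here covers only how much these 4 samples vary, possibly for technical reasons.

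Hyaluronan is a long, unsulfated sugar polymer that HAS enzymes spin out through the plasma membrane. Versican, the product of VCAN, binds it, and link proteins of the HAPLN family lock the 2 together, which gives a hydrated matrix. In the embryonic heart this matrix is the cardiac jelly between myocardium and endocardium, and in mice loss of Has2, Vcan or Hapln1 disturbs formation of the heart. Small leucine-rich proteoglycans such as lumican, decorin and biglycan instead decorate collagen fibrils, while glypicans carry heparan sulfate at the cell surface.

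HAPLN1, VCAN and LUM had lower signals with both TMEM88 hairpins than in either control and were called in the fit described below. HAS2, CD44 and BGN had groups that did not overlap but were not called. The genes were chosen with this contrast known, so these calls are a description and not support. The link protein gene HAPLN1 stood at 5.67% of the control level with shRNA 691 and at 7.28% with shRNA 94, and VCAN at 29.3% and 18.04%. The synthase gene HAS2 stood at 38.4% and 42.4% by its brightest probe but at 80.7% and 72.6% by another (limma adjusted p = 0.102 for the brightest). LUM and CD44 were detected in both controls and with neither TMEM88 hairpin. BGN stood at 186% and 204% of the control level (limma adjusted p = 0.120), whereas HAPLN3, HAS3 and GPC3 had overlapping groups and DCN was not detected on any array. A probe counted as detected on an array where its detection p-value was under 0.01, and levels relative to control are ratios of normalized signals.

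The 10 genes had 21 probes, of which 7 were detected on all 4 arrays, 4 on 2 arrays and 10 on none. A gene entered the fit through its brightest probe among those detected on at least 2 arrays, so 9 of the 10 genes were measured and DCN was not. LUM and CD44 entered only through the group in which they were high. In limma, 3 of the 9 were called lower at an adjusted p under 0.05, HAPLN1, LUM and VCAN, and none was called higher. Of all 10377 tested genes, 1.02% were called lower and 0.954% higher, and since the genes were chosen from this contrast, no weight is placed on the comparison. At an unadjusted p under 0.05, a rule that 8.81% of tested genes met as lower and 9.53% as higher, HAS2 and CD44 joined the lower genes and BGN was higher. For 5 of the 9 both TMEM88 arrays lay below both controls and for 1 above both, as did 24.9% and 25.2% of all tested genes. The median log2 difference of the 9 was -1.31, beside 0.00125 over all tested genes. Without control 1 the log2 differences of HAS2, CD44 and BGN were -1.72, -2.24 and 1.16. Without control 2 they were -0.90, -0.93 and 0.75. With no detection filter HAPLN1 alone of the members was called, among 19 of 20046 genes.

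**Figure D1:**
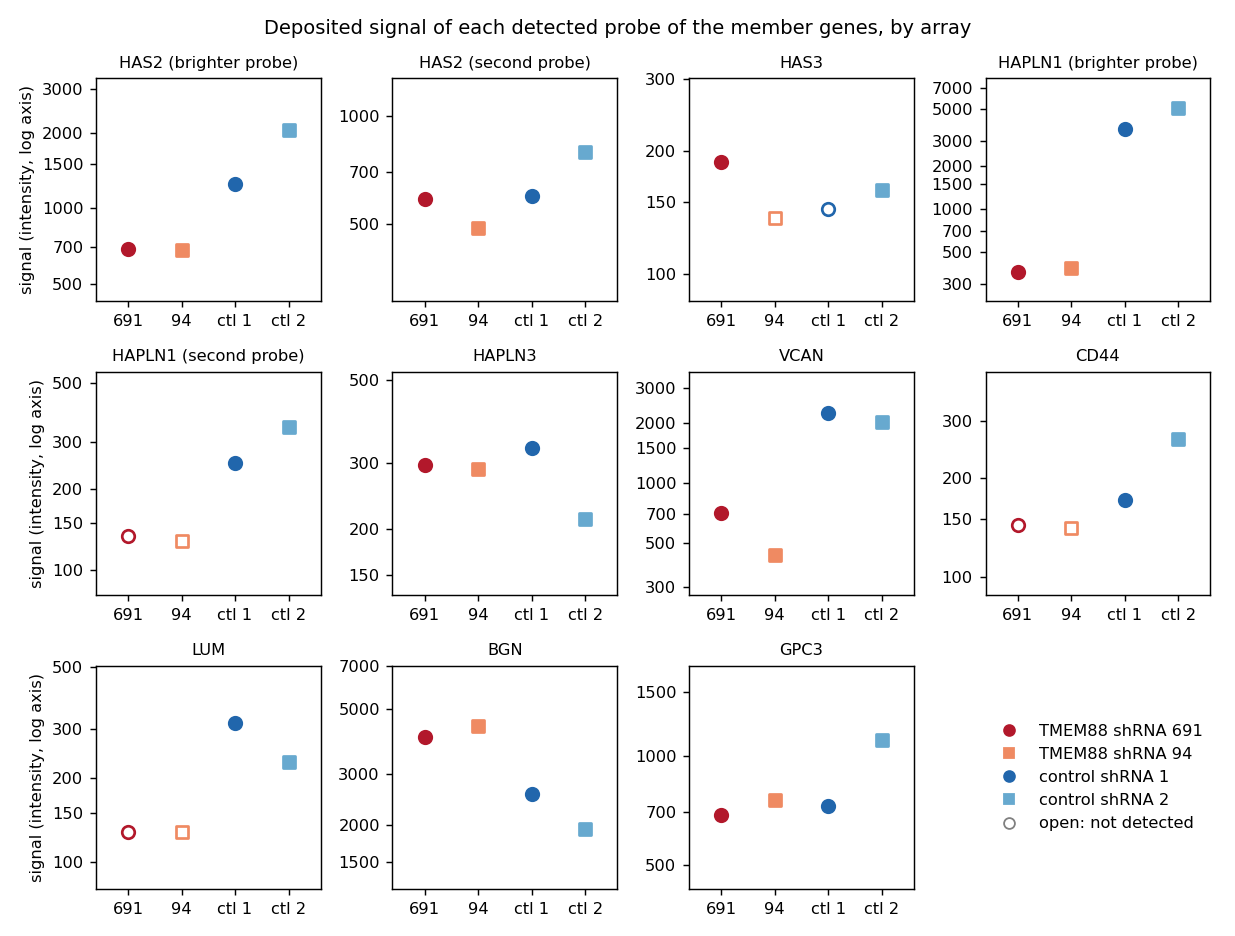
Each panel plots the deposited, non-normalized signal (intensity, log axis) of 1 detected probe on the 4 arrays, TMEM88 shRNA 691 and 94 in red shades and controls 1 and 2 in blue, with open symbols where the probe was not detected. Both TMEM88 arrays lie below both controls for HAPLN1, VCAN, LUM, CD44 and HAS2 and above them for BGN; axes differ between panels, and levels of different probes cannot be set against each other.

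HAS2 encodes the hyaluronan synthase that is required in the embryonic mouse heart. Its brightest probe (ILMN_1792978) had signals of 691.1 with shRNA 691 and 680.6 with shRNA 94, against 1253.6 and 2066.2 in controls 1 and 2. The TMEM88 arrays nearly coincided and both lay below both controls, which were themselves 0.83 apart on the log2 scale. The log2 difference, TMEM88 shRNA minus control, was -1.31 ± 0.32 (SE, n = 2 each). A further HAS2 probe (ILMN_1700935) was also detected on all 4 arrays and gave signals of 588.6 and 488.2 with shRNA 691 and 94, against 597.5 and 793.5 in the controls. There shRNA 691 and control 1 were nearly level, and the log2 difference was -0.39, so the size of the HAS2 difference depended on the probe. The remaining 2 HAS2 probes were not detected anywhere, with signals between 110.8 and 128.7.

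HAS3, which encodes another hyaluronan synthase, was near the detection limit. Its brighter probe gave 187.6 with shRNA 691 and 136.9 with shRNA 94, against 143.7 and 160.1 in the controls, and was detected with shRNA 691 and in control 2 only. The groups overlapped, with the TMEM88 arrays at the top and at the bottom of the order. The log2 difference of 0.06 ± 0.41 (SE, n = 2 each) was smaller than its error.

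HAPLN1, which encodes the link protein that ties versican to hyaluronan, had the largest difference of the 9 measured genes. Probe ILMN_1678812 gave signals of 361.9 with shRNA 691 and 386.7 with shRNA 94, against 3627.5 and 5099.9 in controls 1 and 2. Both TMEM88 arrays thus lay far below both controls and close to each other, and the probe was detected on all 4 arrays. The log2 difference was -3.96 ± 0.28 (SE, n = 2 each), a level 15.6-fold higher in the controls. Probe ILMN_2210519 of the same gene was dimmer, with 133.5 and 128.6 on the TMEM88 arrays, where it was not detected, against 250 and 342.1 in the controls. For that probe the level was at least 4.49-fold lower with the TMEM88 hairpins. Such bounds start from the mean of both controls. For each array of the undetected group they use the higher of the lowest detected signal on that array and the probe's own value. They therefore say less than the first probe does. They hold for the background-corrected values of these 4 arrays: in the deposited log2 values, the same dim probe differed by -1.22.

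HAPLN3, a second link protein gene, had overlapping groups. Its single probe, detected on every array, gave 295.8 and 289.7 with shRNA 691 and 94, against 328.6 and 212.6 in controls 1 and 2. Both TMEM88 arrays lay between the controls, and the log2 difference was 0.29 ± 0.35 (SE, n = 2 each).

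VCAN encodes versican, the large chondroitin sulfate proteoglycan of the cardiac jelly. Its single probe (ILMN_1687301) gave 707.2 with shRNA 691 and 434.5 with shRNA 94, against 2253.7 and 2019 in controls 1 and 2. The controls agreed within 0.12 on the log2 scale and lay above both TMEM88 arrays, of which shRNA 94 was the lower. The log2 difference was -2.12 ± 0.29 (SE, n = 2 each). With shRNA 691 as the only TMEM88 array, a comparison that takes its spread from the controls alone, VCAN was no longer called in limma.

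In the order of genes on the array, VCAN and HAPLN1 are direct neighbours on chromosome 5, and the RefSeq promoters place them on opposite strands. XRCC4, the next gene on the VCAN side, and EDIL3, the next on the HAPLN1 side, were not detected on enough arrays to be tested, so the comparison could not be carried to the flanking genes. The 250 bases before the RefSeq start (build GRCh38.p14) are shown for both neighbours, and for BGN, the member that was higher, at chr5:83720856-83721105 on the minus strand, chr5:83471494-83471743 on the plus strand and chrX:153494730-153494979 on the plus strand. Capitals mark matches, on either strand, to any of 6 motifs searched: the TATA box TATAAA, the CCAAT box, the GC box GGGCGG, the TCF and LEF core CTTTGA, the GATA factor string AGATAA and the E-box CATCTG.
HAPLN1: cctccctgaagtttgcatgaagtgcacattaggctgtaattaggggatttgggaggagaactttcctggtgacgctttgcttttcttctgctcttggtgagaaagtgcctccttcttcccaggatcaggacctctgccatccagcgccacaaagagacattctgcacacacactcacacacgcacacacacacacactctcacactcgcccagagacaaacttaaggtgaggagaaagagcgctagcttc
VCAN: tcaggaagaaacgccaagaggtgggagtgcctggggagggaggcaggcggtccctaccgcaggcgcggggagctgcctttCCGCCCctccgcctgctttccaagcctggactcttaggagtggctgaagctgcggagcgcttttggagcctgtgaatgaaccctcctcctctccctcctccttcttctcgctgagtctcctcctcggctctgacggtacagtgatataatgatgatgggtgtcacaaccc
BGN: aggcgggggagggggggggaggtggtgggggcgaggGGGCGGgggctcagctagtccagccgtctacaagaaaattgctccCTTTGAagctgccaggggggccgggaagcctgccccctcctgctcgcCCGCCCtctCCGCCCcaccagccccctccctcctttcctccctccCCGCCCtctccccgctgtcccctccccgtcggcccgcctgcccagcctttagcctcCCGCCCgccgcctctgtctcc
The HAPLN1 window held none of the 6 letter strings. The VCAN window held the GC box string once, read on the opposite strand, and the BGN window held it 5 times and the TCF and LEF core once. Among 27305 promoters of the same length, the GC box string was present in 42.3%, the TCF and LEF core in 11.4%, the TATA box in 11.1%, the CCAAT box in 33.0%, the GATA string in 9.37% and this E-box in 12.2%. The share of G and C was 50.8% for HAPLN1, 60.8% for VCAN and 74.0% for BGN, beside a median of 58.0% over all these promoters. These are matches of letters, not measured binding sites, and the neighbours that were lower together shared no motif of the 6. Of the 10 genes, 6 had an entry among the RefSeq promoters. Of those not shown, HAPLN3 held none of the 6 strings, HAS3 the GC box string only, 1 time, and CD44 the GC box string only, 2 times.

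CD44 encodes the principal cell-surface receptor for hyaluronan. Probe ILMN_1803429 gave 144.3 with shRNA 691 and 140.4 with shRNA 94, not detected on either, against 172 and 264.1 in controls 1 and 2, where it was detected. The TMEM88 arrays lay below both controls, but the controls were 1.31 apart on the log2 scale. On the background-corrected scale, and against the mean of both controls, CD44 was at least 2.51-fold lower with the TMEM88 hairpins. Against control 1 alone this bound would be smaller. The fitted log2 difference of -1.58 ± 0.42 (SE, n = 2 each; limma adjusted p = 0.123) rests on undetected values and moved with the processing. It was -0.61 with no background correction, -0.64 in the deposited log2 values, -0.93 without control 2 and -2.24 without control 1. Only the last of these was larger than the 2.51-fold bound. Of these it passed only without control 1. The 2 other CD44 probes, annotated to other transcripts of the gene, were not detected on any array.

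Among the small leucine-rich proteoglycans, both TMEM88 arrays lay below both controls for LUM and above both for BGN. LUM entered the fit only through the controls, so its call as lower carries no weight. LUM, encoding lumican, had signals of 128.7 and 128.4 with shRNA 691 and 94 (ILMN_1790529), against 314.7 and 229 in controls 1 and 2. The probe was detected in both controls and on neither TMEM88 array, which gives a level at least 3.89-fold lower on the background-corrected scale. The fitted log2 difference of -2.64 ± 0.29 (SE, n = 2 each) rests on undetected values. It was -1.07 with no background correction and -1.12 in the deposited log2 values, both smaller than that bound. A further LUM probe was not detected on any array, with signals between 111.3 and 114.2.

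DCN, which encodes decorin and lies next to LUM in gene order, could not be measured. Its 4 probes gave signals between 114 and 147.9 over the 4 arrays, with no detection p-value under 0.01. BTG1, on the far side of DCN from LUM, had a log2 difference of -0.50 ± 0.28 (SE, n = 2 each; limma adjusted p = 0.400), and KERA and EPYC, on the other side of LUM, were not tested for want of detection.

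BGN, encoding biglycan, was the member with both TMEM88 arrays above both controls. Its single probe (ILMN_2206746) gave 4009.6 with shRNA 691 and 4387.4 with shRNA 94, against 2563 and 1933.7 in controls 1 and 2. The hairpins lay close together, and the log2 difference was 0.96 ± 0.25 (SE, n = 2 each), a ratio of 1.94 that did not pass (limma adjusted p = 0.120). The direction held in all 11 alternative settings, with log2 differences between 0.75 and 1.16, and 2 of them called BGN, the fit without control 1 and the one with an intensity trend.

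GPC3, the glypican gene whose loss causes an overgrowth syndrome in humans, showed no separation. Its probe gave 688.7 and 753.4 with shRNA 691 and 94, against 725.4 and 1101.9 in controls 1 and 2. Control 1 lay between the TMEM88 arrays, so the groups overlapped, and the log2 difference was -0.29 ± 0.31 (SE, n = 2 each). GPC4, the neighbour of GPC3 on chromosome X and a glypican gene too, had a log2 difference of 0.83 ± 0.23 (limma adjusted p = 0.138), with both TMEM88 arrays above both controls.

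**Figure D2:**
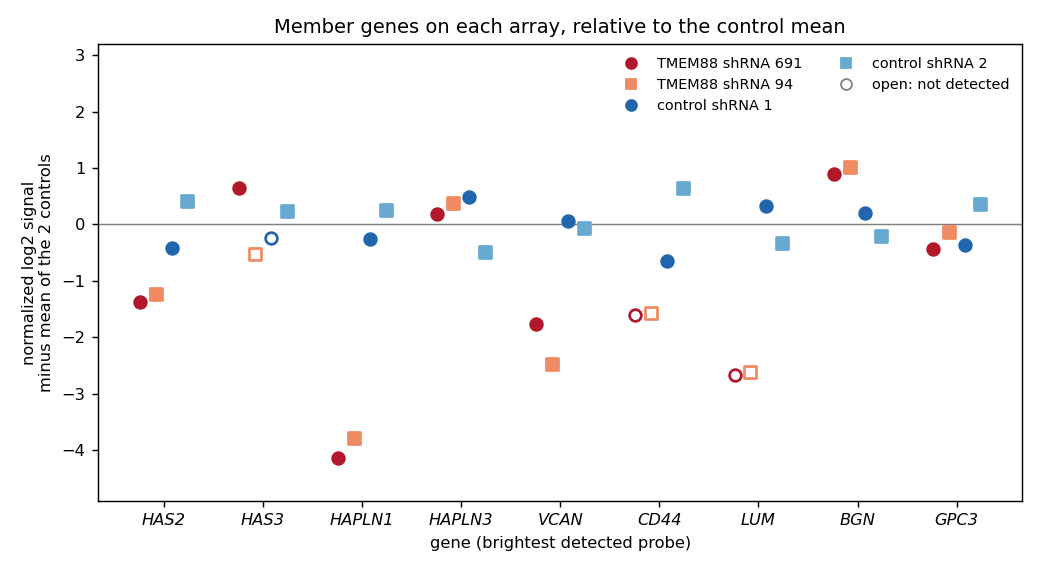
Normalized log2 signal of the brightest detected probe of each gene, minus the mean of both controls, for TMEM88 shRNA 691 and 94 (red shades) and controls 1 and 2 (blue shades), with open symbols where the probe was not detected. The hairpins are 1.18 apart for HAS3, 0.70 for VCAN and at most 0.36 for HAPLN1, HAPLN3, HAS2, BGN and GPC3, and for LUM and CD44 both hairpin values are undetected.

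TMEM88, the target, had signals of 360.7 with shRNA 691 and 1329.7 with shRNA 94, against 2292.8 and 2987 in controls 1 and 2, that is 9.62% and 52.9% of the control level. Its log2 difference was -2.15 ± 0.71 (SE, n = 2 each; limma adjusted p = 0.187) for both hairpins. From the controls, shRNA 691 alone differed by -3.38 and shRNA 94 alone by -0.92. The difference of shRNA 691 minus shRNA 94 was -2.46 ± 0.48, with 1 array per hairpin. The log2 difference of HAPLN1 from control was -4.14 with shRNA 691 and -3.78 with shRNA 94, and that of HAS2 -1.38 and -1.24. For VCAN the values were -1.77 and -2.47, and for BGN 0.89 and 1.03. LUM and CD44 were undetected with both hairpins, so their hairpins cannot be compared. These single-hairpin values share the same controls. The direct contrast of shRNA 691 minus shRNA 94, which uses no control level and did not choose the genes, gave -0.36 ± 0.48 for HAPLN1, 0.70 ± 0.45 for VCAN, -0.14 ± 0.53 for HAS2 and -0.13 ± 0.47 for BGN (SE, 1 array per hairpin). The HAS3 contrast was 1.18 ± 0.48, with an unadjusted p of 0.0372 and a limma adjusted p of 1, and HAS3 was detected with shRNA 691 only. None of the 9 genes passed, nor did any of the 10377 tested genes in limma, of which 98 (0.944%) had an unadjusted p under 0.05. This contrast takes its error from the controls alone, which lay further apart than the hairpins. Over all tested genes the median absolute log2 gap was 0.34 between the controls and 0.21 between the hairpins. The contrast therefore had little room to call a gene, and missing the threshold does not show that the hairpins acted alike.

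**Figure D3:**
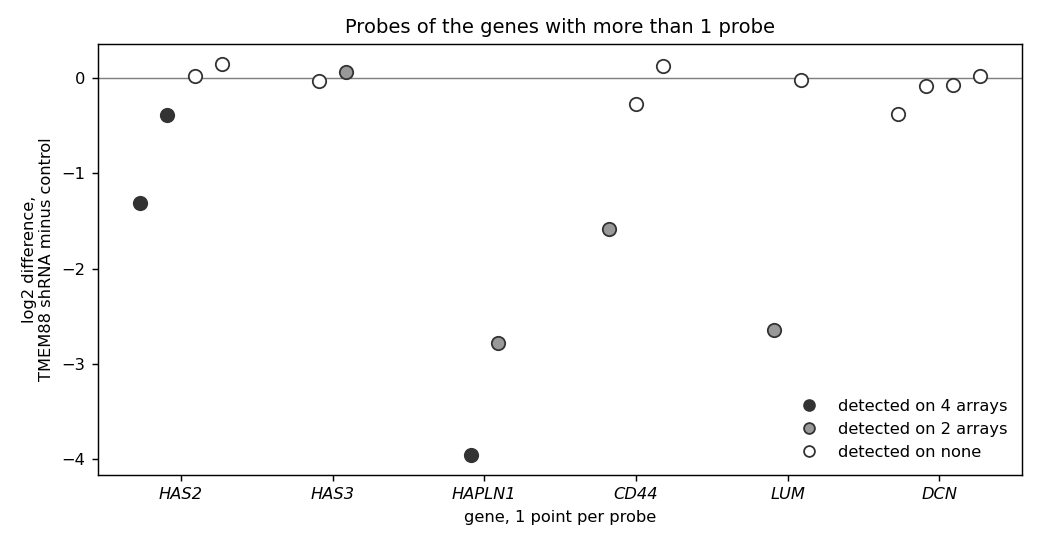
Log2 difference, TMEM88 shRNA minus control, of every probe of the 6 genes with more than 1 probe, shaded by the number of arrays on which the probe was detected. Probes undetected on all arrays (open) lie at background and near 0, detected HAPLN1 probes stand at -3.96 and -2.78, and detected HAS2 probes at -1.31 and -0.39.

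Probes of 1 gene differed. The 10 probes undetected on all 4 arrays sat at background, where no difference could be measured, and had log2 differences between -0.38 and 0.15. For HAPLN1 and HAS2, where 2 probes were detected in at least 1 group, both probes lay on the same side of 0 and differed in size. Averaged over the detected probes, the log2 difference was -3.37 ± 0.28 for HAPLN1 and -0.85 ± 0.29 for HAS2 (SE, n = 2 each).

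The transcript next to HAS2 in gene order had a difference of the opposite sign. HAS2-AS1, the antisense RNA of the HAS2 locus, had normalized log2 levels of 7.26 and 7.67 with shRNA 691 and 94, against 6.07 and 6.20 in controls 1 and 2. Both TMEM88 arrays lay above both controls, and the HAS2-AS1 difference was 1.34 ± 0.25 on the log2 scale (SE, n = 2 each), which did not pass (limma adjusted p = 0.0549). SNTB1, on the other side of HAS2, was not detected in either control and had a log2 difference of 1.47 ± 0.42 (limma adjusted p = 0.142). Around the other members, no tested neighbour outside the list passed. MFGE8 and ISG20, which flank the HAPLN3 and ACAN pair of a link protein and a lectican, had log2 differences of -0.11 ± 0.26 and -0.01 ± 0.30, and ACAN itself was not tested. PAMR1, near CD44, stood at 1.15 ± 0.25 (limma adjusted p = 0.0770).

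The other genes of hyaluronan and proteoglycan metabolism spread on both sides of 0. Of 114 further genes on the array in 13 lists, 62 were tested, and in limma 1 rose and 1 fell, or 3.23% against 1.98% of all tested genes. Their median log2 difference was 0.02, with 31 positive and 31 negative values. CEMIP2, which encodes a cell-surface protein described as a hyaluronidase in mice, fell: its signals were 306.2 and 338.6 with shRNA 691 and 94, against 672.6 and 832.8 in controls 1 and 2, a log2 difference of -1.54 ± 0.28 (SE, n = 2 each; limma adjusted p = 0.0491). CSPG4, a transmembrane chondroitin sulfate proteoglycan gene, rose: its signals were 243.4 and 219, against 147.5 and 151.5, a log2 difference of 1.49 ± 0.22 (limma adjusted p = 0.0260), with detection in 1 of the 2 controls. With either hairpin array left out, neither gene was called. Without control 1 the log2 difference was -1.75 for CEMIP2 and 1.43 for CSPG4. Without control 2 it was -1.33 and 1.55. CSPG4 was not called with no background correction or with the deposited matrix either, where its log2 difference was 0.60 and 0.63.

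**Figure D4:**
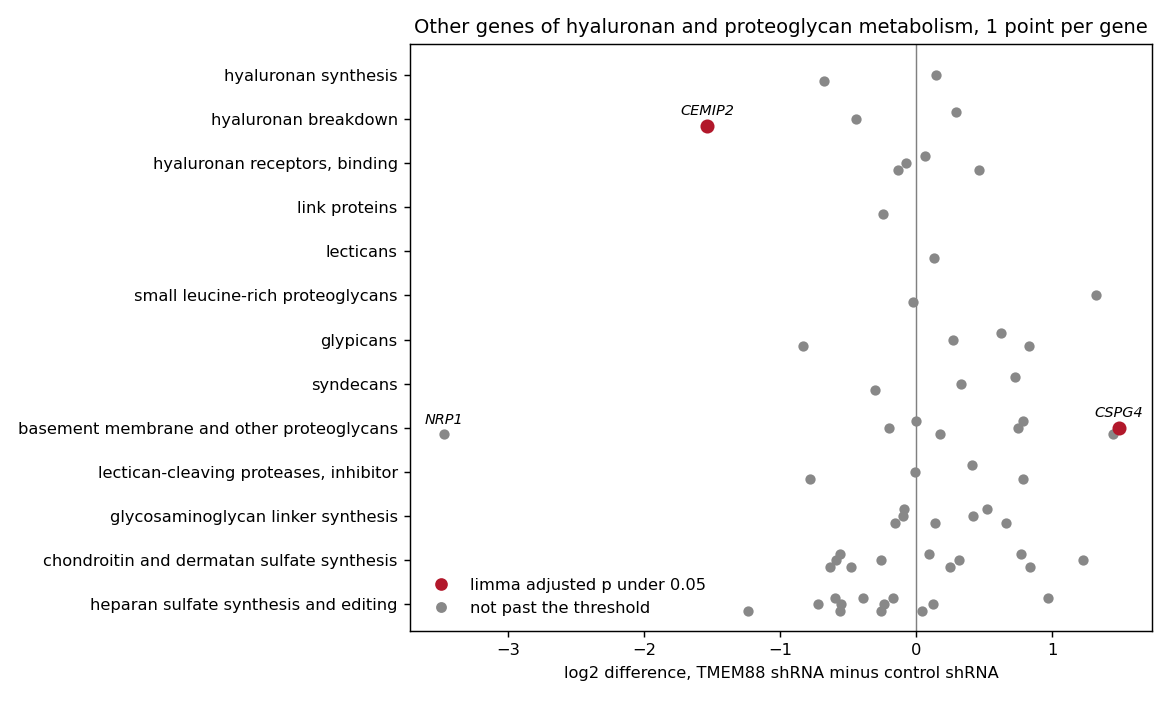
Log2 difference, TMEM88 shRNA minus control, of the 62 tested genes of 13 lists of hyaluronan and proteoglycan metabolism other than the member genes, with 1 point per gene and called genes in red. CEMIP2 (-1.54) and CSPG4 (1.49) are called, and the other points spread on both sides of 0.

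In the 11 lists without a call, 51 genes were tested, and 5 higher and 5 lower ones had an unadjusted p under 0.05. Sugar precursors for hyaluronan come through UGP2 and UGDH, whose log2 differences were 0.14 ± 0.25 and -0.67 ± 0.24. The other tested link protein and lectican genes, HAPLN4 and NCAN, stood at -0.24 ± 0.26 and 0.13 ± 0.24, and the hyaluronan-binding genes ITIH5 and HMMR at -0.13 ± 0.23 and -0.07 ± 0.59. Of the proteases that cleave versican, ADAMTS9 and ADAMTS1 stood at 0.41 ± 0.30 and -0.01 ± 0.35. Among cell-surface proteoglycans GPC2 stood at 0.62 ± 0.30, SDC4 at 0.33 ± 0.26 and SDC2 at 0.73 ± 0.33. Besides GPC4, given above, the remaining tested glypicans and syndecans were GPC6 at -0.83 ± 0.28, SDC1 at -0.30 ± 0.40 and GPC1 at 0.27 ± 0.30. Among small leucine-rich proteoglycans PODN stood at 1.32 ± 0.44 and FMOD at -0.02 ± 0.24. For chain synthesis the values were 0.14 ± 0.24 for FAM20B and 0.66 ± 0.44 for XYLT2 of the common linker, -0.59 ± 0.28 for CHSY1 and -0.26 ± 0.23 for UST of chondroitin sulfate, and -0.56 ± 0.22 for HS3ST3A1 and -0.24 ± 0.27 for HS6ST2 of heparan sulfate. Chosen after its values were seen, NRP1, a receptor that can carry a glycosaminoglycan chain, was not detected with either hairpin by its fitted probe, which had signals of 217.5 and 1163.5 in the controls. These were 3.26 apart on the log2 scale, and NRP1 did not pass (limma adjusted p = 0.123). Another NRP1 probe was detected on all 4 arrays, with a log2 difference of -1.61.

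Profiles were ranked by root mean square distance to HAPLN1 over the 4 arrays, each taken relative to its control mean. Members and genes with LOC, LINC or open reading frame names were left out. The nearest of the remaining tested genes were HOXB2 (0.15), HAND2 (0.21), ACKR3 (0.22), CBLN2 (0.23) and SLC30A3 (0.29), in log2 units. HOXB2 is a homeobox gene, HAND2 a transcription factor gene of the developing heart, ACKR3 a scavenging chemokine receptor gene, CBLN2 a cerebellin gene and SLC30A3 a zinc transporter gene. Their log2 differences lay between -4.02 and -3.74. ACKR3 was detected on neither TMEM88 array and HAND2 on 1 of them, so their distances and ranks rest partly on values at background. The ranking is a description over 4 arrays and carries no test.

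Markers of other stages and cell types differed between the same arrays, and in bulk RNA fewer cells of a type and less RNA per cell cannot be told apart. Of 12 markers of the labelled cardiovascular progenitor stage, 11 were tested, TBX5 not passing the filter, and 5 had positive and 6 negative differences. TMEM88, the target of the hairpins, is on this list and counts among the negative ones. The summed normalized signal of the 11, TMEM88 included, overlapped between the groups. It was 11712 and 12589 with shRNA 691 and 94, against 10436 and 15196 in controls 1 and 2. In limma, MESP1, an early mesoderm factor, was higher (3.68 on the log2 scale), and HAND2, MEF2C and PDGFRA were lower, while ISL1 stood at 0.03. MEF2C was detected on neither TMEM88 array and HAND2 on 1 of them, so their differences rest partly on values at background. The 3 tested of 8 cardiomyocyte markers were all called lower, their sum being 571.2 and 539.2 on the TMEM88 arrays, against 4623 and 3540 in the controls. Of these, MYH6 was detected on 1 TMEM88 array only. ACTN2, MYH7, NPPA, RYR2 and TNNI1 did not pass the filter. Of 8 blood markers only HBE1 and HBG1 were tested, and HBE1, an embryonic globin gene, was called lower, with a log2 difference of -5.48 and no detection on either TMEM88 array. For the 7 tested of 11 fibroblast and epicardial markers the sum was 4032 and 3637, against 5646 and 5776. FN1, POSTN, TBX18 and WT1 did not pass the filter. PDGFRA, which is also on the progenitor list, was the only one called, as lower. COL1A2 and PDGFRB had positive log2 differences (0.68 and 0.82) with overlapping groups, and the other tested ones were negative.

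A further 5 lists had higher sums on both TMEM88 arrays than in either control. Sums add linear signals, so the brightest gene weighs most. This was VWF (log2 difference 1.88) for the endothelial and endocardial list and LIN28A (0.28) for the pluripotency list. Of the tested endothelial and endocardial markers 4 were positive, and TEK stood at -0.14. For the 5 tested of 7 primitive streak markers the sum was 6141 and 4621 with shRNA 691 and 94, against 530.3 and 652.2 in controls 1 and 2. Of these markers 3 were called higher, among them MESP1, the same gene as on the progenitor list. MIXL1 and TBXT did not pass the filter. The 5 tested of 9 paraxial mesoderm markers were all positive and 3 were called, with sums of 3015 and 2254, against 929.7 and 849.1, and MEOX1, MSGN1, PAX3 and TBX6 did not pass the filter. The 7 tested of 8 endoderm markers were all positive and 1, CXCR4, was called, with sums of 3566 and 3274, against 1382 and 843.4, AFP not passing the filter. No gene was called among the 5 tested of 9 endothelial and endocardial markers, whose sums were 3448 and 2379, against 1191 and 840.4, with CDH5, ERG, PECAM1 and TIE1 not passing the filter. Nor was one called among the 5 tested of 6 pluripotency markers, with sums of 15672 and 11344, against 9837 and 10768, NANOG not passing the filter. For the 5 tested of 7 neural crest and cartilage markers the sums overlapped, at 1523 and 2308, against 3042 and 1334. FOXD3 and MATN4 did not pass the filter. SOX10, detected in neither control, was called higher. TFAP2A (-1.05), SOX9 (-0.88) and COL9A1 (-0.73) had negative log2 differences and COL2A1 stood at 0.05, none of them called. The part of these marker shifts in the differences of HAPLN1, VCAN, HAS2, LUM, CD44 and BGN was not tested.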

How the data were processed

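Gene expression of 4 samples was measured on Illumina bead arrays. The deposited intensity values are linear scanner signals, not normalized, and each has a deposited detection p-value beside it, per the file headers. The deposited log2 values of the series matrix were normalized between arrays by the authors by a method that is not stated. The submitters' processing notes name lumi and limma 3.12.3 without a role. From the signals, neqc of limma 3.58.1 (R 4.3.3, offset 16, background from detection p-values) gave normalized log2 levels. Of 47322 probes 30113 had 1 symbol, 8 had several and 17201 had none, and 30074 matched the GRCh38.p14 gene table, used for names and gene order.

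The 10377 genes with a probe detected (p under 0.01) on at least 2 of 4 arrays were each fitted by their brightest such probe with lmFit and eBayes (2 residual and 4.84 prior degrees of freedom), 2-sided, Benjamini-Hochberg adjusted over all of them, threshold 0.05. Hairpins were compared in a fit with 3 groups. The members and lists were chosen with earlier results of these data known. Named genes were all members, called genes of the pathway lists, the brightest 2 of each list without a call, up to 2 neighbours on each side and the 5 profiles nearest to HAPLN1. That ranking left out members and genes with LOC, LINC or open reading frame names. For glypicans and syndecans all tested genes were named. The fit was tested on simulated data. Promoters are from RefSeq (GRCh38.p14), and the number of arrays limits the precision. Figures used matplotlib 3.10.9.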

Additional observations from a re-analysis of the deposited data

How the results depend on the processing

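No paired analysis was possible because no replicate code is shared between the groups, and the files name no slide. Over all genes, 205 called genes became 19 with no detection filter and between 50 and 1453 with 1 array left out. The 2 called pathway genes became 1 with no background correction, 1 with the deposited matrix, 1 when detected on all 4 arrays, 0 with no detection filter and 0 to 18 with 1 array left out. Leaving out an array leaves the spread of the other group's arrays as the only residual, and the lone array is assumed to vary like them. The hairpin contrast called 0 genes in every setting run, and leaving out a control gives it no test. The sign of 691 minus 94 turned for CD44 (0.018, median scaling) and HAS2 (0.0061, mean of detected probes), beside -0.04 and -0.14 as reported. HAPLN1 was called in all 11 alternatives, with log2 differences between -4.22 and -3.37. LUM ranged from -2.98 to -1.07 and CD44 from -2.24 to -0.61, smallest with no background correction, as both rest on undetected values. VCAN ranged from -2.47 to -1.77, and HAS2 from -1.72 to -0.85. The signs of GPC3, HAPLN3 and HAS3 changed with the array left out. Dim signal over background limits LUM, CD44, HAS3 and DCN.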
